A study of Mus musculus with 6 samples.

Results

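Ctla2a, Ctla2b and Ctsl were followed as 3 of the 55401 genes in a table of RNA-seq counts from C3H10T1/2 cells, a mouse mesenchymal stem cell line that can be turned toward bone, fat or muscle fates in culture. Ctla2a was chosen because its fold from day 0 to day 7 was the largest in shControl cells among genes with at least 10 counts in both libraries, Ctla2b because it is the close paralog of Ctla2a, and Ctsl because it encodes the protease that both gene products inhibit. The shControl day comparison therefore selected the group and is given here as a description. All 3 symbols were matched to an Ensembl identifier, all 3 had counts in each of the 6 libraries, and all 3 passed the filter on low counts in every fit.

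Of the 3 lines, shControl carries a control short hairpin RNA and is labelled WT, shNFIB carries a hairpin against Nfib and is labelled NFIB knockdown, with a target in a region that all its isoforms share, and shMLL1 carries one against Kmt2a, which encodes the histone methyltransferase MLL1, and is labelled MLL1 knockdown. Each line gave 1 untreated library at day 0 and 1 library at day 7 in osteogenic media, which supplied dexamethasone at 0.1 μM, ascorbic acid 2-phosphate at 100 μg/ml and β-glycerophosphate at 20 mM. Every line had been through hairpin delivery, and whether a line is 1 clone or a pool of cells is not given in the sources used here. With 1 library a condition, no pair of conditions has a replicate check, and time in culture and the medium cannot be told apart.

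The libraries held between 21608680 and 34774066 counts. Nfib was at 35.3 and 8.15 CPM (counts scaled to library size by TMM factors) in shNFIB against 116 and 83.5 CPM in shControl at day 0 and day 7. Kmt2a was at 30.9 and 34.8 CPM in shMLL1 against 74.7 and 66.3 CPM in shControl. In the line of the other hairpin, Nfib was at 65.5 and 72.7 CPM in shMLL1 and Kmt2a at 86.5 and 94.0 CPM in shNFIB. All 8 mesenchymal markers were detected, with a summed level of 6671 to 15820 CPM at day 0 and 6349 to 7580 CPM at day 7. Ctla2a was first described in activated T cells and mast cells, and of their markers 8 of 9 and 6 of 6 had at most 3 counts in any library. Of 7 endothelial markers 2 reached 10 counts in any library, and their sum was 3.38 to 25.5 CPM at day 0 and 2.79 to 5.31 CPM at day 7. The summed level of 6 macrophage markers was 2.50 to 4.21 CPM at day 0 and 7.14 to 12.0 CPM at day 7, so by day it moved with the Ctla2 genes. By line it did not, since at day 7 it was 11.1 CPM in shControl, 7.14 in shNFIB and 12.0 in shMLL1. Ctla2a was highest in shNFIB at day 7. The part of the macrophage sum in the levels of the Ctla2 genes was not tested. Among these markers, Adgre1 was at 0 in all libraries and Ptprc had at most 3 counts. Lyz2 had 14 counts at day 0 and 13 at day 7 in shControl, 2 and 5 in shNFIB and 8 and 3 in shMLL1. Of the 3 tested in the knockdown lines, Cd68 was called higher at day 7 (log2 fold change 1.76, adjusted p = 0.0491 in edgeR's quasi-likelihood test), while Fcgr1 was at 1.38 (adjusted p = 0.126) and Csf1r at 1.58 (adjusted p = 0.250). In bulk RNA, more cells of a type and more RNA per cell cannot be told apart.

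Cathepsin L is a cysteine protease of the lysosome that is also secreted. It is made as an inactive proenzyme whose propeptide covers the active site until it is cut away. The Ctla2 proteins are small and resemble that propeptide without a protease domain behind it, and they inhibit cathepsin L-like enzymes. In rodents their genes lie beside a cluster of cathepsin L relatives that is active in the placenta.

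Ctla2a (ENSMUSG00000044258) lies on chromosome 13 of GRCm38 from 60934155 to 60936625, Ctla2b (ENSMUSG00000074874) from 60895350 to 60897447 and Ctsl (ENSMUSG00000021477) from 64359337 to 64370890, all protein-coding and on the minus strand. The sequences upstream of the paralogs are shown because both genes went the same way in every line. They are the 250 bases before each start site in RefSeq's GRCm38.p6 annotation, at chr13:60936626-60936875 for Ctla2a and chr13:60897448-60897697 for Ctla2b, read 5′ to 3′ on the minus strand. Capitals mark bases that differ between the paralogs, stand opposite a gap or fall outside the stretch that could be aligned.
Ctla2a: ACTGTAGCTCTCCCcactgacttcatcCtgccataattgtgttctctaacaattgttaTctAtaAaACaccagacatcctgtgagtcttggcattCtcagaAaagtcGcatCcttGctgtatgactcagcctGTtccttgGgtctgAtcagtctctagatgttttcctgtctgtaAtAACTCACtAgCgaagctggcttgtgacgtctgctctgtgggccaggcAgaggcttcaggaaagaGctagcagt
Ctla2b: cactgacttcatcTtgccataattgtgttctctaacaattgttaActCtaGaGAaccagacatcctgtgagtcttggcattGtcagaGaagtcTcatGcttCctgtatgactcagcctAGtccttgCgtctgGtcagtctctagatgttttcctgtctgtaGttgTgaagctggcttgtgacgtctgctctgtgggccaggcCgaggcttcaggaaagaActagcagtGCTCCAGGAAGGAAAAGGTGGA
Over the aligned stretch of 236 columns, 209 bases were identical (88.6%), with 19 mismatches and 8 gap columns. Most of both windows is thus in lower case. The letters TTGGC, the core bound by NFI proteins, occurred once in each of the Ctla2 windows and not in that of Ctsl, counting both strands, while 41.5% of the 32851 RefSeq promoter windows held them. The letters AGAACA, the core of the glucocorticoid receptor site, also occurred once in each Ctla2 window and not in that of Ctsl, against 16.1% of windows. Neither the full NFI palindrome nor the full glucocorticoid response element, each of which contains its core on both strands, was in any of the 3 windows, and they were in 0.0365% and 0.00913% of all windows. These matches describe letters and not bound sites.

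Ctla2a, the first inhibitor gene, was above its paralog in every library but shControl at day 0, by CPM and per kilobase of all exon bases. In shControl its 12 counts at day 0 (0.376 CPM) stood against 39173 at day 7 (1285 CPM). In shNFIB its 273 counts at day 0 (8.65 CPM) stood against 126148 at day 7 (4268 CPM). In shMLL1 its 298 counts at day 0 (9.87 CPM) stood against 43094 at day 7 (1766 CPM). The 3 day 7 libraries were far above the 3 day 0 libraries, and the lowest day 7 level was 130 times the highest day 0 level. Both knockdown lines were above shControl before differentiation as well as after it. In shNFIB at day 7 Ctla2a took 0.415% of all counts and was the 10th most abundant gene by CPM, whereas in shControl at day 0 it was 14480th.

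**Figure D1:**
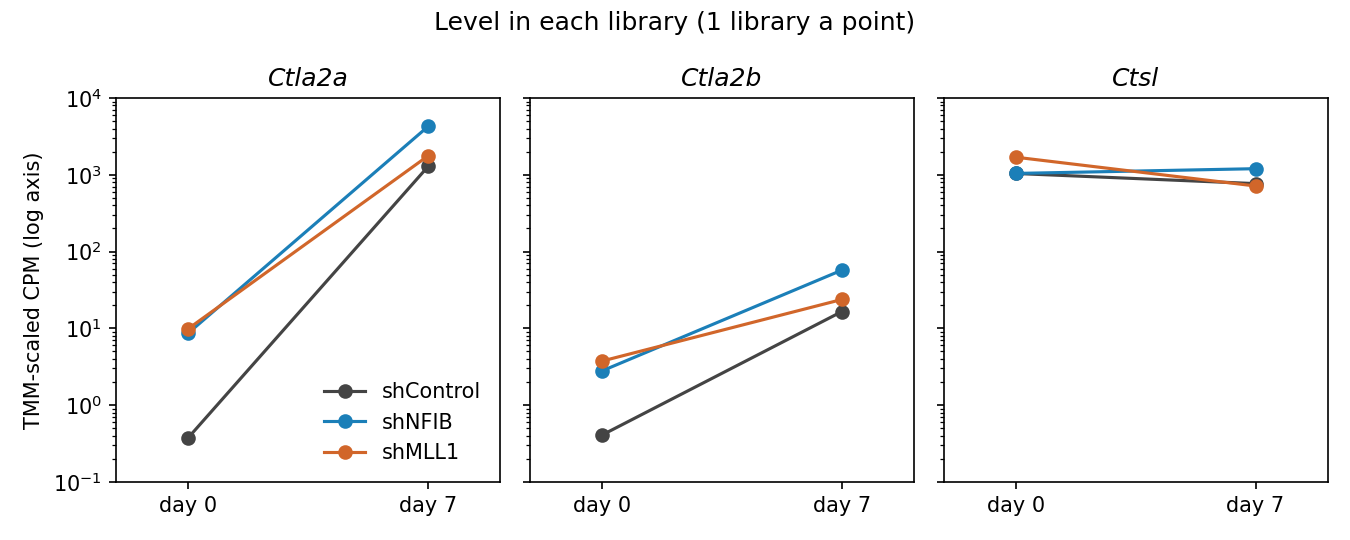
Level of Ctla2a, Ctla2b and Ctsl in each library, as TMM-scaled CPM on a log axis, with 1 point a library and lines joining day 0 and day 7 of a line. Both Ctla2 genes are higher at day 7 in all 3 lines and lowest in shControl at day 0, while Ctsl stays between 714 and 1696 CPM.

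The day effect was tested in the 4 libraries of the knockdown lines, which leaves out the shControl values that chose Ctla2a. The genes were nevertheless picked with results of all 6 libraries known. Among genes with at least 10 counts in both libraries, Ctla2a had the largest rise in shNFIB too. The p-values below are thus not independent of the choice. The test was edgeR's quasi-likelihood test, blocked by line and Benjamini-Hochberg adjusted over 15895 genes. Ctla2a rose with a log2 fold change of 8.21 (SE 0.69, adjusted p = 0.000146). Ctla2b rose with 3.51 (SE 0.47, adjusted p = 0.00118). Ctsl was at -0.52 (SE 0.50, adjusted p = 0.511), which does not pass. In this fit 7.26% of all genes were called higher and 7.54% lower, so a call by itself was not rare. The fit has 1 residual degree of freedom, so the spread used for a gene also draws on that of other genes. The knockdown lines carry different hairpins and are not replicates, and a day change that differs between them counts as error. For Ctsl the fit pools a rise in shNFIB and a fall in shMLL1.

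Within single pairs of libraries the log2 fold change of Ctla2a from day 0 to day 7 was 8.95 in shNFIB (95% interval 8.78 to 9.12) and 7.48 in shMLL1 (7.32 to 7.65). The value that selected the gene, in shControl, was 11.72 (10.94 to 12.69). All intervals of folds come from the counts by the exact Clopper-Pearson method. They hold counting error alone, because reads need not stem from separate molecules. Among genes with at least 10 counts in both libraries, Ctla2a had the largest rise of 14238 genes in shNFIB and the 7th largest of 14297 in shMLL1. The largest rises in shMLL1 were those of Dpep1 (9.77) and Gdpd2 (8.85), which encode a membrane dipeptidase and a glycerophosphodiesterase. The fold was smaller in the knockdown lines than in shControl, with a log2 difference of -2.78 in shNFIB (-3.61 to -1.94) and -4.24 in shMLL1 (-5.08 to -3.41), and this difference between lines has no replicates and was not tested. It is set against the value for which the gene was picked as the largest, so nothing is read from it.

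**Figure D2:**
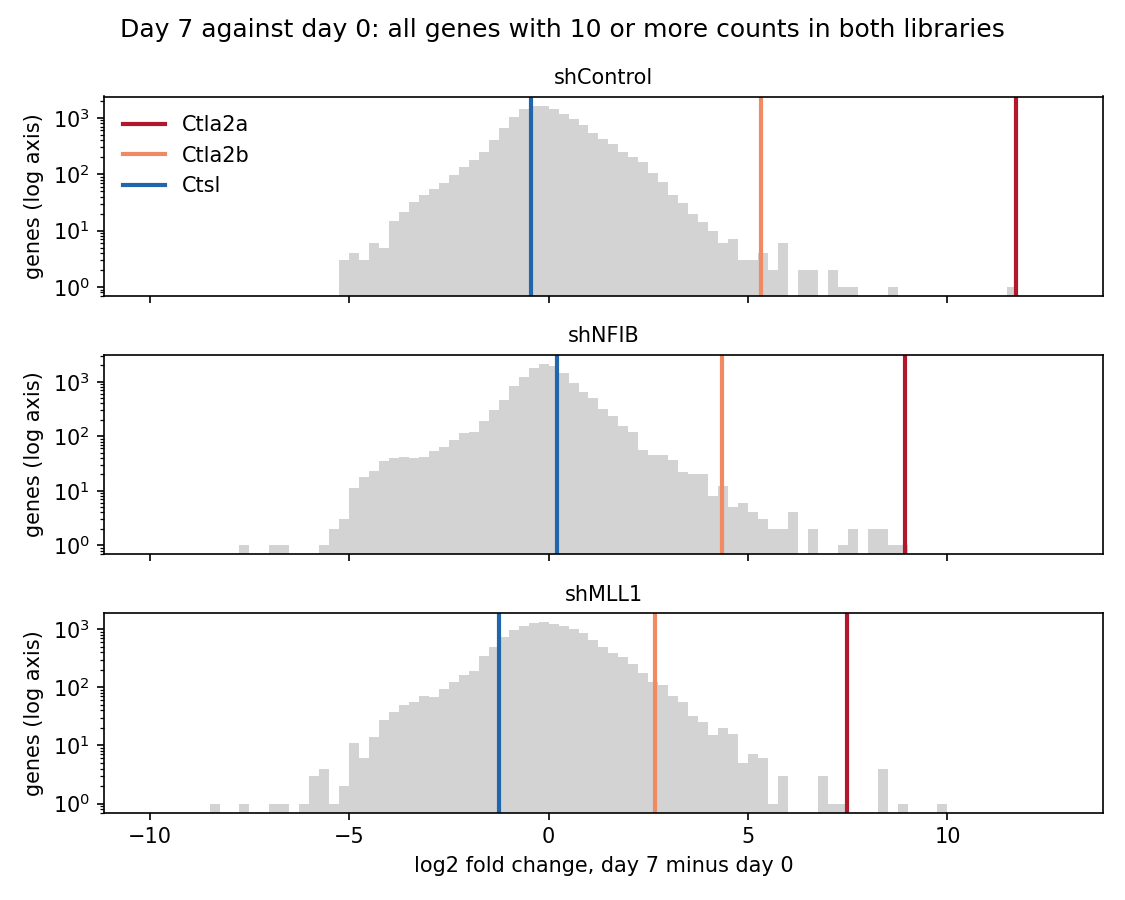
Histogram of log2 fold changes from day 0 to day 7 in each line, for genes with at least 10 counts in both libraries, with the number of genes on a log axis and vertical lines at the 3 genes. Ctla2a stands at the right end of the distribution in shControl and shNFIB and near it in shMLL1, Ctla2b is at 5.33, 4.36 and 2.66, and Ctsl lies in the body of the distribution.

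Ctla2b, the second inhibitor gene, was lower than Ctla2a except in shControl at day 0, by CPM and per kilobase of all exon bases. The order depends on the length taken. Exon bases that no other gene shares numbered 539 for Ctla2b and 1765 for Ctla2a. Per base of these, Ctla2b was the higher gene in every day 0 library and the lower one in every day 7 library. In shControl Ctla2b had 13 counts at day 0 (0.407 CPM) and 504 at day 7 (16.5 CPM). The shNFIB libraries had 88 (2.79 CPM) and 1692 (57.2 CPM), and the shMLL1 libraries 113 (3.74 CPM) and 580 (23.8 CPM). The libraries stood in the same order as for Ctla2a, and again no day 0 library reached a day 7 library. The log2 fold change from day 0 to day 7 was 4.36 in shNFIB (4.05 to 4.69), 2.66 in shMLL1 (2.37 to 2.97) and 5.33 in shControl (4.56 to 6.26).

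The paralogs did not move in proportion. Ctla2b made up 52.0% of the counts of the pair in shControl at day 0 (exact 95% interval 31.3 to 72.2), 24.4% in shNFIB (20.0 to 29.1) and 27.5% in shMLL1 (23.2 to 32.1). At day 7 its share was 1.27% in shControl (1.16 to 1.39), 1.32% in shNFIB (1.26 to 1.39) and 1.33% in shMLL1 (1.22 to 1.44). The day 7 shares of the 3 lines thus lay within counting error of each other although the summed counts ranged from 39677 to 127840. Whether a fixed small share of Ctla2a reads was assigned to Ctla2b was not tested.

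Values of Ctla2b are the less certain ones. The main coding transcripts of the paralogs were 93.4% identical over the 706 bases of Ctla2a that could be aligned to Ctla2b. No window of 100 bases, the read length, was found unchanged in both genes. Of the exon bases of Ctla2b, 68.7% are also exon of the overlapping gene models Gm49391 and Gm49392 on the same strand, against 16.3% for Ctla2a, so that reads there belong to more than 1 model. Of the 100-base windows of the main transcript, 76.9% for Ctla2b and 19.5% for Ctla2a also occurred in another gene. Those models had at most 20 and 27 counts in any library. Such low counts do not show how many reads of Ctla2b were lost, since reads in more than 1 model may have been dropped. For Ctsl 26.8% of the exon bases overlap the antisense model Gm47123 and 6.09% the model Gm49230 on the same strand, both at 0 in every library.

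Ctsl, the gene for cathepsin L, was abundant throughout. In shControl there were 33223 counts at day 0 (1040 CPM) and 23399 at day 7 (768 CPM). The shNFIB libraries had 32877 (1041 CPM) and 35489 (1201 CPM), and the shMLL1 libraries 51182 (1696 CPM) and 17435 (714 CPM). The highest library was shMLL1 at day 0 and the lowest was shMLL1 at day 7, and day 0 and day 7 overlapped over the lines. The log2 difference between shNFIB and shControl at day 0 was 0.0016 (-0.020 to 0.024), and every other pair of neighbors in the order of the 6 levels was apart by more than counting error.

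From day 0 to day 7 the log2 fold change of Ctsl was 0.21 in shNFIB (0.18 to 0.23), -1.25 in shMLL1 (-1.27 to -1.22) and -0.44 in shControl (-0.46 to -0.41). Of the 3 genes, 2 were over 2-fold higher at day 7 in each line, where 16.5% of genes were so in shNFIB, 25.8% in shMLL1 and 23% in shControl. Ctsl was over 2-fold lower in shMLL1, as were 19.8% of genes there, and none of the 3 was in shControl or shNFIB, against 14.9% and 13.9% of genes.

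Set against each other per kilobase of exon, the transcripts of inhibitor and protease changed places. The summed level of Ctla2a and Ctla2b per kilobase was 0.00259 of that of Ctsl in shControl at day 0, 0.0356 in shNFIB and 0.0262 in shMLL1. At day 7 it was 5.23 times that of Ctsl in shControl, 11.1 times in shNFIB and 7.73 times in shMLL1. The protease transcript was thus in excess in all 3 day 0 libraries and the inhibitor transcripts in all 3 day 7 libraries. With 1 coding transcript a gene as the length, since a long model of Ctsl adds to its exon length, the day 7 values were 2.45, 5.21 and 3.63, an alternative chosen after seeing the data. By CPM per kilobase Ctla2a was the 15th highest gene in shNFIB at day 7, the 27th in shMLL1 and the 55th in shControl. Levels of RNA do not give those of the proteins.

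Each knockdown line was next compared with shControl, so the comparisons of both lines share the shControl libraries. Before differentiation Ctla2a was higher in shNFIB by a log2 fold change of 4.51 (3.70 to 5.49) and in shMLL1 by 4.70 (3.89 to 5.68). Ctla2b was higher by 2.76 (1.93 to 3.74) and 3.19 (2.37 to 4.15). Both differences rest on 12 and 13 counts in the same shControl library, whose low value of Ctla2a also entered the fold that selected it, so they are given as a description. Ctsl was at 0.71 in shMLL1 (0.69 to 0.73). Of the 3 genes, 2 were past 2-fold upward in each line at day 0, where 7.26% of genes were so in shNFIB and 11% in shMLL1. None was past 2-fold downward, against 6.32% and 9.35% of genes. Between the knockdown lines, the level of Ctla2a at day 0 differed by 0.19 (-0.050 to 0.43), which was not detectable at this depth. Ctla2b was higher in shMLL1 than in shNFIB at day 0 by 0.43 (0.011 to 0.84), just beyond counting error.

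At day 7 Ctla2a was higher than in shControl by 1.73 in shNFIB (1.72 to 1.75) and by 0.46 in shMLL1 (0.44 to 0.48), on the log2 scale. Ctla2b was higher by 1.79 (1.65 to 1.94) and 0.52 (0.35 to 0.70). Ctsl was at 0.65 in shNFIB (0.62 to 0.67) and -0.10 in shMLL1 (-0.13 to -0.08). In shNFIB both Ctla2 genes were past 2-fold upward, as were 8.07% of genes, and none of the 3 was past it downward, against 13.2%, and in shMLL1 none of the 3 was past 2-fold in either direction, against 8.59% of genes upward and 6.95% downward.

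**Figure D3:**
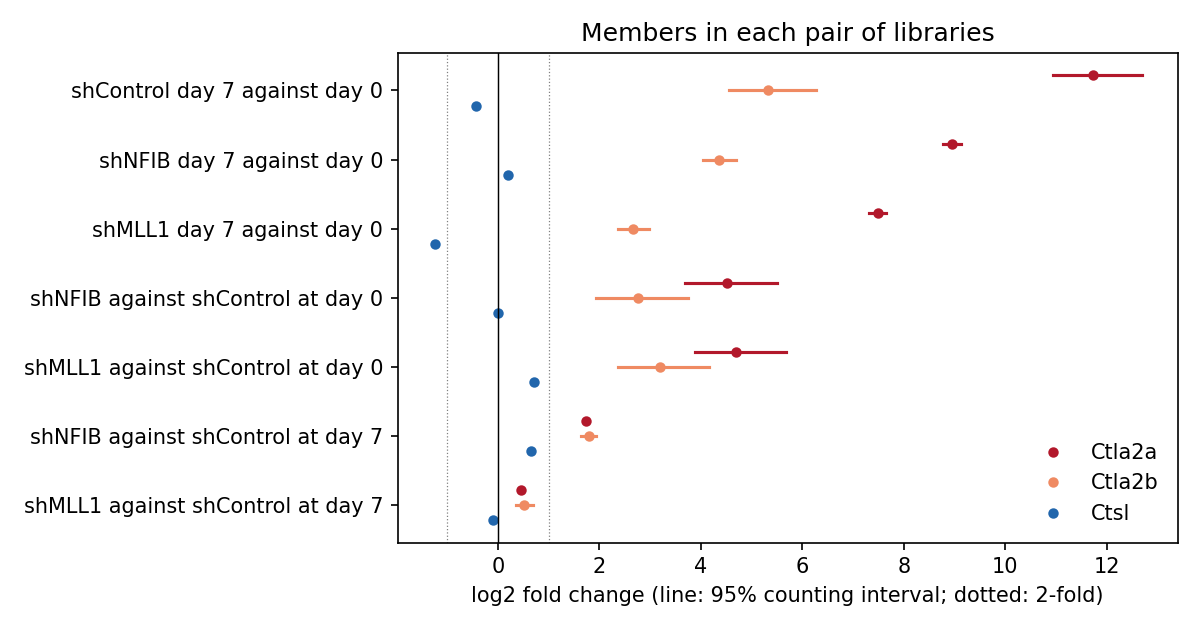
Log2 fold changes of the 3 genes in 7 pairs of libraries, with points for the values, horizontal lines for 95% counting intervals and dotted lines at 2-fold. Both Ctla2 genes lie to the right of 0 in every pair, the farthest being Ctla2a in shControl at 11.72.

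With both days in 1 fit blocked by day, edgeR's quasi-likelihood test put Ctla2a at a log2 fold change of 2.46 in shNFIB against shControl (SE 0.83, adjusted p = 0.297) and Ctla2b at 2.03 (SE 0.56, adjusted p = 0.212). In shMLL1 the values were 2.11 for Ctla2a (SE 0.87, adjusted p = 0.525) and 1.69 for Ctla2b (SE 0.58, adjusted p = 0.422). Ctsl was at 0.36 (SE 0.40, adjusted p = 0.750) and 0.35 (SE 0.40, adjusted p = 0.849). None of the 3 genes passed in either line, although Ctla2a and Ctla2b had an unadjusted p of 0.0207 and 0.00806 (shNFIB) and of 0.0459 and 0.0224 (shMLL1) in edgeR's test. In these fits 0.114% and 0.012% of 16660 genes were called higher and 0.264% and 0.018% lower. By DESeq2, Ctla2b passed in shNFIB (adjusted p = 0.0171) and the others did not. With the 4 libraries of shNFIB and shControl alone, Ctla2a and Ctla2b did pass in shNFIB (adjusted p = 0.0374 and 0.0113 in edgeR's test). All of these fits hold the shControl libraries that selected Ctla2a. Their p-values are a description and not independent support for a difference between lines. Where a line differs from shControl more on 1 day than on the other, the fit takes that as error. The differences of Ctla2a and Ctla2b at day 0 were larger than those at day 7, but they rest on the low shControl counts at day 0. Their part in these test results was not tested.

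Related genes were then read in the same day test of the knockdown lines. Over all lists 24 genes were tested, with Ctsl among them, and 5 were called, all of them higher, beside 7.26% of all genes called higher and 7.54% lower. Of 10 cysteine cathepsins, 7 passed the filter, and 2 were called higher and none lower. The median log2 fold change was 0.37, beside -0.019 over all genes tested. The 2 were Ctsf, the gene for cathepsin F, with 2.03 (SE 0.44, adjusted p = 0.0135), and Ctsk, the collagen-degrading cathepsin of osteoclasts, with 3.05 (SE 0.70, adjusted p = 0.0184). Ctsk was low, with 10 to 24 counts at day 0 and 52, 359 and 30 at day 7 in shControl, shNFIB and shMLL1. The abundant members Ctsb and Ctsz, for cathepsins B and Z, were at -0.16 (adjusted p = 0.831) and 0.20 (adjusted p = 0.726) in the quasi-likelihood fit.

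Of the 9 placental relatives of cathepsin L, Cts3, Cts6, Cts7, Cts8, Ctsj, Ctsm, Ctsq, Ctsr and Ctsll3, every one had 0 counts in all 6 libraries. A count of 0 allows up to 0.123 CPM in shMLL1 at day 7, the shallowest library.

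Among 12 other inhibitors of cysteine cathepsins, 6 passed the filter and 1 was called higher and none lower, beside the same shares of all genes, with a median log2 fold change of -0.30. That gene was Cst3, which encodes cystatin C, the main secreted inhibitor, at 2.10 (SE 0.44, adjusted p = 0.0126). Cst3 had 14506 and 84226 counts in shControl, 9126 and 33970 in shNFIB and 14904 and 55382 in shMLL1, so that all 3 day 7 libraries were above all 3 at day 0. Cstb, the gene for the cytosolic inhibitor stefin B, was at 0.23 (adjusted p = 0.712) and Kng2, a kininogen gene, at 1.47 (adjusted p = 0.257) in the same edgeR fit.

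Of 11 genes for cathepsin L maturation and sorting, all passed the filter, 2 were called higher and none lower, again beside 7.26% and 7.54% of all genes, with a median of -0.14. They were Sort1, the gene for the sorting receptor sortilin, at 3.41 (SE 0.57, adjusted p = 0.00404), and Mitf, a transcription factor of the family that drives lysosomal genes, at 1.97 (SE 0.36, adjusted p = 0.00612). Lgmn, the gene for the protease legumain, was at -0.32 (adjusted p = 0.582), Ctsd at 0.23 (adjusted p = 0.764) and M6pr, a mannose 6-phosphate receptor gene, at -0.17 (adjusted p = 0.792) in that edgeR fit. By single pairs of libraries, members of these lists over 2-fold higher at day 7 in shControl, shNFIB and shMLL1 numbered 3, 3 and 2 for the cysteine cathepsins, 3, 2 and 1 for the other inhibitors and 2, 3 and 2 for maturation and sorting, beside 23%, 16.5% and 25.8% of all genes. Those over 2-fold lower numbered 0, 0 and 1, then 1, 0 and 3, and 1, 2 and 0, beside 14.9%, 13.9% and 19.8% of all genes. None of the genes in these lists was called in edgeR's test of shNFIB or shMLL1 against shControl over both days, where 5 and 4 of 24 had an unadjusted p under 0.05.

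**Figure D4:**
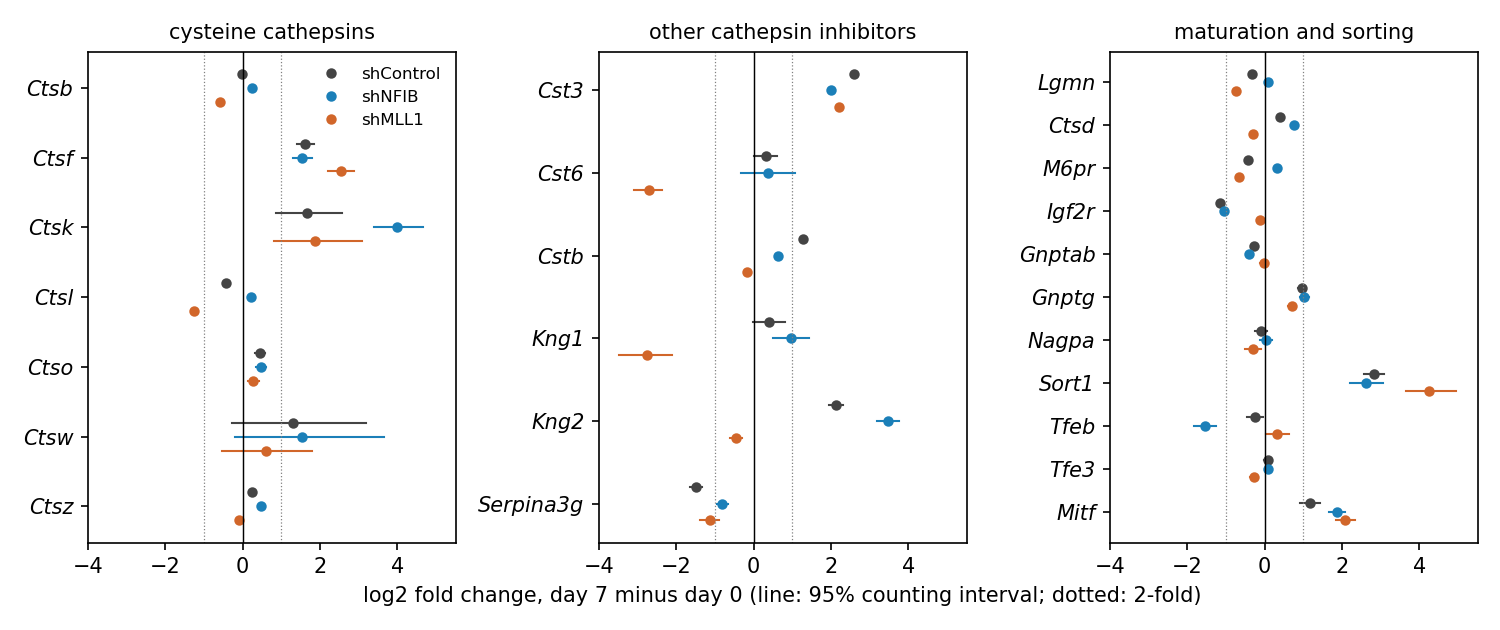
Log2 fold changes from day 0 to day 7 in the 3 lines for cysteine cathepsins, other cathepsin inhibitors and genes of maturation and sorting that had at least 10 counts in any library, with 95% counting intervals and dotted lines at 2-fold. Ctsf, Ctsk, Cst3, Sort1 and Mitf lie past 2-fold to the right in each line, while Ctsl lies left of 0 in shControl and shMLL1 and right of it in shNFIB.

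Around the Ctla2 genes, 17 other genes of the table lie within 250 kb, and 4 had at least 10 counts in any library. Dapk1, which encodes death-associated protein kinase 1 and ends at 60763191, had 287 and 2566 counts in shControl, 904 and 3284 in shNFIB and 133 and 615 in shMLL1. It rose in the knockdown lines with a log2 fold change of 2.23 (SE 0.34, adjusted p = 0.00230 in edgeR's test). The gene model 4930486L24Rik had 0, 1 and 0 counts at day 0 in shControl, shNFIB and shMLL1 against 14, 136 and 7 at day 7. The other 2 are Gm49391 and Gm49392, which overlap the Ctla2 genes. The remaining 13 genes, with Ctsj, Ctsq, Ctsr and Ctsll3 among them, were under 10 counts in every library.

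The genes whose pattern over the 6 libraries was most like that of Ctla2a were Camk2n1 (Pearson r = 0.991), Abcg1 (0.989), Ctla2b (0.983), Aldh1a1 (0.980) and Aox1 (0.976), in log2 CPM, among 524 genes with a range of at least 5. They encode an inhibitor of CaM kinase II, a sterol exporter, the paralog, a retinaldehyde dehydrogenase and an aldehyde oxidase. By Spearman's rho Ctla2b was 1 of 3 genes among the 524 that tied at a value of 1. In ranks that count Ctla2a itself, Aldh1a1 and Aox1 tied at 5th, Abcg1 came 27th and Camk2n1 67th. The order thus depends on the measure. With 6 libraries that share 3 lines and 2 days these values describe the libraries. Abcg1, for example, had 40 and 1332 counts in shControl, 174 and 1374 in shNFIB and 99 and 940 in shMLL1.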

How the data were processed

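RNA-seq counts of 6 libraries were used, 1 for each line and day. The authors sequenced TruSeq libraries as paired reads of 100 bases, trimmed them with Trimmomatic 0.39, mapped them with HISAT2 2.2.1 to the GRCm38 (mm10) assembly, kept mapping qualities over 30 with SAMtools 1.12, removed PCR duplicates and deposited raw counts per gene from HTSeq 0.11.1. The annotation release and strand setting are not given in the sources used here, so reads of overlapping genes may be split or dropped. In the study, TMM and edgeR were used at over 2-fold and a 5% false discovery rate, without a stated dispersion, so no p-value is given here for a pair of libraries.

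Here counts were scaled by TMM factors over the 6 libraries (edgeR 4.0.16, with DESeq2 1.42.0 as an alternative, R 4.3.3). Fold changes of pairs used a prior count of 0.125 and a minimum of 10 counts in at least 1 of the libraries. Quasi-likelihood fits used the genes kept by filterByExpr and an adjusted p threshold of 0.05. Standard errors were taken from the F statistic. The line pairs the days, since both libraries of a line come from cells with the same hairpin, and over 13339 genes the 2 libraries of a line deviated together, with r of 0.411 (shControl), 0.392 (shNFIB) and 0.256 (shMLL1). P-values measure a change against the spread between these libraries, which the fits moderate for each gene with the spread of other genes. The p-values therefore do not rest on a gene's own spread alone. In the day test a gene's own spread is how far its day change differs between the knockdown lines. In the line tests it is how far the line difference varies by day. Neither is a spread between replicates. Gene models and lengths came from GENCODE M21, upstream windows from RefSeq. The fits were also run on simulated counts. These had less spread than the libraries here and no day change that differed by line. They check the code and not the error rates in these data.

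The members and lists were chosen with earlier results of these data known. Named genes were the 3 members, the hairpin targets, the 5 genes most like Ctla2a, neighbors within 250 kb with 10 counts, list members past 2-fold the same way in all lines or the 3 most abundant of a list, and the 3 largest rises above that of Ctla2a, of which 1 is not reported here. The macrophage markers and the placental genes were named after their values were seen. Alternatives were other scalings, filters, tests, blocks, lengths, left-out lines and days, summed paralogs and thinned counts.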

Additional observations from a re-analysis of the deposited data

Results flagged for a closer look

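In each gene below the change from day 0 to day 7 went opposite ways in different lines, beyond counting error, with 1 library a condition, so the difference between lines was not tested. Ctsl was 1.45 apart on the log2 scale between shNFIB, where it was higher at day 7, and shMLL1, where it was lower. Between the same lines, Ctsb was 0.82 apart, Ctsz 0.56, Ctsd 1.05, Lgmn 0.81, M6pr 0.97 and Kng2 3.93. Cstb was 1.44 apart between shControl, where it was higher at day 7, and shMLL1. With library size alone as the scaling, Ctsz and Cstb were no longer lower at day 7 in shMLL1, at log2 fold changes of 0.12 and 0.04.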

How the results depend on the processing

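The rise of Ctla2a and Ctla2b from day 0 to day 7 in the knockdown lines kept its direction and its call under the alternatives with a test that used these 4 libraries. The fit of all 6 is not counted here, since it holds the shControl libraries that selected Ctla2a. The fits against shControl below hold those libraries too and are given as a description. With no test, leaving out a line gave 7.48 to 8.95 for Ctla2a and 2.66 to 4.36 for Ctla2b. Without the replicate block of the line, 443 genes were called higher and 567 lower in place of 1154 and 1198. Without a filter 1750 were called higher, with library size alone 748 lower, and with all 6 libraries and the block 2679 higher and 2719 lower. For shNFIB against shControl over both days, Ctla2a was at 2.45 without a filter (edgeR, adjusted p = 0.00356) and 2.68 in the 4 libraries compared (adjusted p = 0.0374), and at 1.73 to 4.51 with 1 day left out. Ctla2b was at 2.03 without a filter (edgeR, adjusted p = 0.00209), 2.06 by DESeq2 (adjusted p = 0.0171) and 2.13 in the 4 libraries (adjusted p = 0.0113), and at 1.79 to 2.76 with 1 day left out. In shMLL1 only the fit without a filter called them, at 2.10 for Ctla2a (edgeR, adjusted p = 0.0296) and 1.69 for Ctla2b (adjusted p = 0.0234), and 1 day left out gave 0.46 to 4.70 and 0.52 to 3.19. Counts of genes called in shNFIB, 19 higher and 44 lower, became 341 and 347 without a filter, 292 and 308 by DESeq2 and 357 and 287 in the 4 libraries. In shMLL1, 2 higher and 3 lower became 236 and 290, 169 and 232, and 77 and 106. Without the replicate block of the day edgeR called 0 genes in either line, with 228 higher and 217 lower at an unadjusted p under 0.05 in shNFIB and 152 and 193 in shMLL1. The cause of these moves was not tested.

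With both paralogs summed, the day fold was 10.69 in shControl, 8.56 in shNFIB and 7.04 in shMLL1 on the log2 scale. Library size alone shifted the median of all genes in shMLL1 by 0.21, put Ctsl at -0.34, 0.30 and -1.04 in shControl, shNFIB and shMLL1 and Ctla2a in shMLL1 at 7.69, and DESeq2 size factors put Ctsl in shMLL1 at -1.31. Over bases no other gene shares, the inhibitor to protease ratio was 0.00442 at day 0 and 4.69 at day 7 for shControl, 0.0459 and 9.98 for shNFIB and 0.0351 and 6.94 for shMLL1, and it was 0.00143 and 2.45, 0.0182 and 5.21, and 0.0135 and 3.63 with 1 transcript a gene. With the longest transcript shControl was at 7.60 at day 7, shNFIB at 0.0476 and 16.2 and shMLL1 at 0.0346 and 11.2. With Ctla2a alone it was 0.00111 in shControl and 0.0179 in shMLL1 at day 0, while shNFIB had 0.0256 and 10.9. The ratios over unshared bases, with 1 transcript a gene and with Ctla2a alone were chosen after seeing the data. Without a minimum count, cathepsins over 2-fold lower numbered 1, 1 and 3 in the 3 lines, other inhibitors lower 2 in shControl and 1 in shNFIB, and other inhibitors higher 2 in shMLL1. With library size alone, 1 maturation and sorting gene was lower in shNFIB. Low counts limit the Ctla2 folds, since shControl at day 0 had 12 and 13 counts.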
